A study of Mus musculus with 4 samples.

Results

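MIXL1 peaks that lay in groups of 3 or more were described as clustered loci, with their peaks, positions and neighbouring genes. Peaks of the deposited list were chained where the gap between the end of one and the start of the next was at most 10 kb. Chains of 3 or more on the 18 autosomes other than chromosome 12 were kept, and peaks in 1-Mb windows with 20 or more peak centres were left out. This gave 443 clustered peaks in 118 loci, which is 4.62% of the 9598 peaks listed. The comparison throughout is with the 6615 single and paired peaks on the same chromosomes and outside such windows, which form 6108 chains of 1 or 2 peaks. Peak spacing chose the loci, so peak numbers, gaps and spans are given as a description without a test.

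The list comes from mouse epiblast stem cells, pluripotent cells grown in culture, in which Mixl1 could be induced. Per the labels, they grew on a feeder layer of irradiated mouse fibroblasts, and the medium held bFGF at 10 ng/mL and activin A at 20 ng/mL. Embryoid bodies were then formed in medium with serum over 2 days, and doxycycline at 1 µg/mL was present during the last 24 h. Chromatin was precipitated with the anti-FLAG M2 antibody in 2 FLAG ChIP libraries, and 2 input libraries had no precipitation. All 4 libraries came from such induced cells, and libraries without induction were not analysed here. Whether the inducible lines were single clones, and where the transgene lies, was not stated in the labels. For all libraries together the authors deposited 1 peak list without scores. Replicate error therefore cannot be given for any value, and depth is unknown. Intervals and p-values cover the counting of loci only. Peak positions hold no expression values, so the cell type could not be checked against marker genes.

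MIXL1 is a paired-type homeodomain protein made in the primitive streak, where cells of the epiblast turn into mesoderm and endoderm. Proteins of this type bind the half-site TAAT, alone or as inverted pairs a few bases apart. Groups of neighbouring binding sites are common around developmental regulators, whose enhancers can lie before, within or after the gene. Families of receptor or defensin genes lie side by side as many similar copies, in which short reads are hard to place.

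Sequence was at hand where a clustered peak overlapped a promoter window of the RefSeq table (GRCm38.p6), which runs from 250 bases before to 50 after a gene's start. Clustered peaks overlapped the windows of 15 genes. The stretches before the start that lie under a peak are printed for 7 of them, 5' to 3' on the gene's strand; they were chosen to show the inverted half-site repeat, promoters with and without half-sites, and the loci of Msx1 and Foxa2. Capitals mark the half-site TAAT on either strand, which reads ATTA on the opposite one. The first belongs to a noncoding gene in the locus between Chst12 and Grifin, the second to one near Reep3, and the next 3 to coding genes, of which Lpar6 lies within Rb1. The start of Frmd4a used here lies inside that gene's span. Gm20052 lies in the second locus before Msx1, and 9030622O22Rik beside Foxa2.
Gm42808, chr5:140549709-140549958, minus strand: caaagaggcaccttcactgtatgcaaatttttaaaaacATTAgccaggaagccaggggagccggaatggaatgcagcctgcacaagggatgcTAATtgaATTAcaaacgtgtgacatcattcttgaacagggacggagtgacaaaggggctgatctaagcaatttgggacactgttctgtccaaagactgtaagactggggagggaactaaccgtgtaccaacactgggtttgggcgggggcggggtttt
1110002J07Rik, chr10:66920385-66920634, minus strand: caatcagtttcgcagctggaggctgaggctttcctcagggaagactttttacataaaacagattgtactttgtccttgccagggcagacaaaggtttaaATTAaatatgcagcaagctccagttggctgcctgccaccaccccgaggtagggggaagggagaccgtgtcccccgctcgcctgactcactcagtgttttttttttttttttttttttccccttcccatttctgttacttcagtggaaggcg
Frmd4a, chr2:4559504-4559753, plus strand: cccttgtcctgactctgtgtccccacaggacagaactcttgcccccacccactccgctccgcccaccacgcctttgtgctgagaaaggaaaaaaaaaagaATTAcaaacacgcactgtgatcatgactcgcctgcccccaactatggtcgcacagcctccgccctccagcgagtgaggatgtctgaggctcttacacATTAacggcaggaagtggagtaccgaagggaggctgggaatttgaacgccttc
Elovl6, chr3:129532227-129532385, plus strand: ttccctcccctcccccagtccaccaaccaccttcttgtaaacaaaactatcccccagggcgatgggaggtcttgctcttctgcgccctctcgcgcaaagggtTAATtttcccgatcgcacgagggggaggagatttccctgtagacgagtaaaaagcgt
Lpar6, chr14:73237743-73237890, plus strand: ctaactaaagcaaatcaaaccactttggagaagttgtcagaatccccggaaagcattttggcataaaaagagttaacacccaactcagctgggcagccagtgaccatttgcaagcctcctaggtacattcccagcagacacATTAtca
Gm20052, chr5:37893658-37893771, plus strand: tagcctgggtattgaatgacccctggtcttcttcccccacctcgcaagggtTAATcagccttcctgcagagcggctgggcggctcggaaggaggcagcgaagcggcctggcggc
9030622O22Rik, chr2:148040703-148040763, minus strand: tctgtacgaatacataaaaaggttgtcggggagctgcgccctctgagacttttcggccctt

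Of these, the Gm42808 stretch held 3 half-sites, and a pair of them formed the inverted repeat TAATNNNATTA. Paired-type homeodomain dimers bind such repeats at a spacing of 3 bases, as here, or of 2. Frmd4a held 2 half-sites, 1110002J07Rik, Elovl6, Lpar6 and Gm20052 held 1 each, and the 61 bases of 9030622O22Rik held none. Over the whole windows, with both strands searched, TAAT stood in 8 of the 15 promoters (53.3%), against 57.9% of the 30119 promoter windows of the same chromosomes. TAATNNNATTA stood in 1 of 15 (6.67%), against 0.508% of all promoters. TAATNNATTA, the dimer site with a spacing of 2, was in none of the 15, against 0.395% of all promoters. TAATTA, which contains TAAT, was also in none, against 5.27%. The forkhead motif TGTTTAC was in 2 of 15 (13.3%), against 3.73%, and the SMAD motif CAGACA in 6 of 15, against 20.9%. The other motifs searched went both ways. Shares were 6.67% against 1.76% for the POU octamer and 13.3% against 11.2% for GATA. T-box gave 20.0% against 14.4%, E-box 20.0% against 16.4% and TCF 13.3% against 15.9%. SOX, the Gsc and Otx type TAATCC and the CTCF core were in none of the 15, against 12.2%, 7.09% and 2.43%. CG stood in all 15, against 94.7%. With 15 promoters these shares are a description. The windows of Elovl6 and Gm35986 overlap under the same peak, and so do those of Gm38446 and Gm51645. Each of the 15 genes counts with 1 window, while the 30119 windows hold every listed start of a gene. Genome sequence under the other clustered peaks was not used here.

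Most clustered loci were small. There were 79 loci of 3 peaks, 22 of 4 and 7 of 5, and only 10 loci had 6 or more, with a maximum of 11. The median locus spanned 11.4 kb (range 1.65 to 40.1 kb). The 325 gaps within loci had a median of 2.88 kb, with quartiles of 1.03 and 5.55 kb. Peak width was not used by the rule but comes from the same list, so it is described only. Clustered peaks were 494 bp wide at the median (quartiles 352 and 785 bp), and single and paired peaks 472 bp (quartiles 346.5 and 692 bp). A width of 1 kb or more was reached by 71 clustered peaks (16.0%) and by 684 single and paired peaks (10.3%). The 118 loci lay on all 18 autosomes searched, from 15 on chromosome 9 and 13 on chromosome 5 to 1 on chromosome 15. At the edge of the rule, the largest gap within a locus was 9.996 kb, and the smallest gap that kept neighbouring smaller chains apart was 10.031 kb. A gap of 10 to 11 kb separated 10 such pairs of chains. Windows of 18 or 19 peaks held 8 of the loci, and 5 chains in windows of 20 or 21 peaks were left out.

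**Figure D1:**
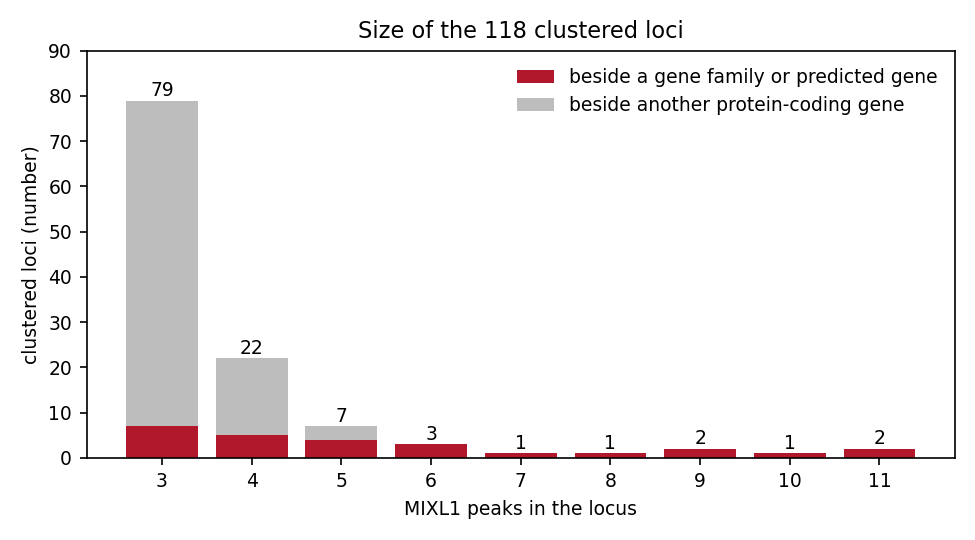
The plot counts the 118 clustered loci (vertical axis) by the number of MIXL1 peaks they hold (horizontal axis). Red bars are loci whose nearest protein-coding gene belongs to a local gene family or is a predicted gene, and grey bars are the rest. All 10 loci of 6 or more peaks are red, against 7 of the 79 loci of 3 peaks.

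The loci with the most peaks had a member of a gene family or a predicted gene as their nearest protein-coding gene. A locus was set down as beside a family where its nearest protein-coding gene shared the letters of its symbol with at least 2 others within 250 kb, that is 3 or more in all. It was set down as beside a predicted gene where that gene has only a provisional symbol (Gm and a number, Rik, LOC or BC). The distance to the nearest gene had no limit. This grouping was chosen after the loci were seen, so it has no test. All 10 loci of 6 or more peaks met it, as did 4 of 7 loci of 5 peaks, 5 of 22 of 4 peaks and 7 of 79 of 3 peaks. In all, 26 of 118 loci (22.0%) met it, with 144 of the 443 peaks, against 451 of 6108 chains of 1 or 2 peaks (7.38%). Families alone accounted for 15 loci (12.7%), against 199 chains of 1 or 2 peaks (3.26%). In near-identical copies the placing of reads is uncertain, and the treatment of reads with several matches was not stated. The part of this in the peak numbers was not tested.

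The 2 loci of 11 peaks lay at Defa21 and at Vmn2r50. Defa21 encodes an alpha-defensin, one of the antimicrobial peptides of Paneth cells in the gut, and 10 Defa genes lie within 250 kb of its locus. The locus (chr8:20987482-21011871) began at a peak of 288 bp and ended at one of 314 bp, with widths from 270 to 1613 bp between and gaps of 0.275 to 5.40 kb. No peak overlapped a listed gene, and Defa21 lay 13.7 kb away. The Vmn2r50 locus (chr7:10001308-10033219) lay 4.02 kb from that gene, among 8 genes of the type 2 vomeronasal receptors, which detect pheromones. Its widths ran from 257 to 1485 bp and its gaps from 0.444 to 7.95 kb. A further locus of 4 peaks at Vmn2r49 lay 13.7 kb away, and 1 of 6 peaks overlapped Vmn2r44 on the same chromosome. Peaks within these arrays were unevenly spaced and their widths differed widely.

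The other large loci also had a family member or a predicted gene as the nearest. The locus of 10 peaks, which had the longest span (40.1 kb), overlapped 2610042L04Rik on chromosome 14 with 6 of its peaks. On chromosome 5, loci of 9 and 6 peaks lay 15.0 kb apart at the predicted genes Gm21698 and Gm21663. Esp34, which encodes a peptide secreted by exocrine glands, had loci of 9 and 4 peaks 18.5 kb apart on chromosome 17. Naip6, which encodes a cytosolic sensor of bacterial proteins in the NAIP family, had loci of 8 and 5 peaks 31.9 kb apart on chromosome 13. Gm5622 on chromosome 14 had 7 peaks within its span, with the largest summed width of all loci (8785 bp) and a widest peak of 3013 bp. The provisional gene BC048507 was the nearest to loci of 6 and 5 peaks, but at 186 and 130 kb. Smaller loci of this kind lay at Ifi203, an interferon-induced gene with 7 Ifi genes near, at the olfactory receptor genes Olfr55 and Olfr102, and at Cyp3a41a of the cytochrome P450 family.

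**Figure D2:**
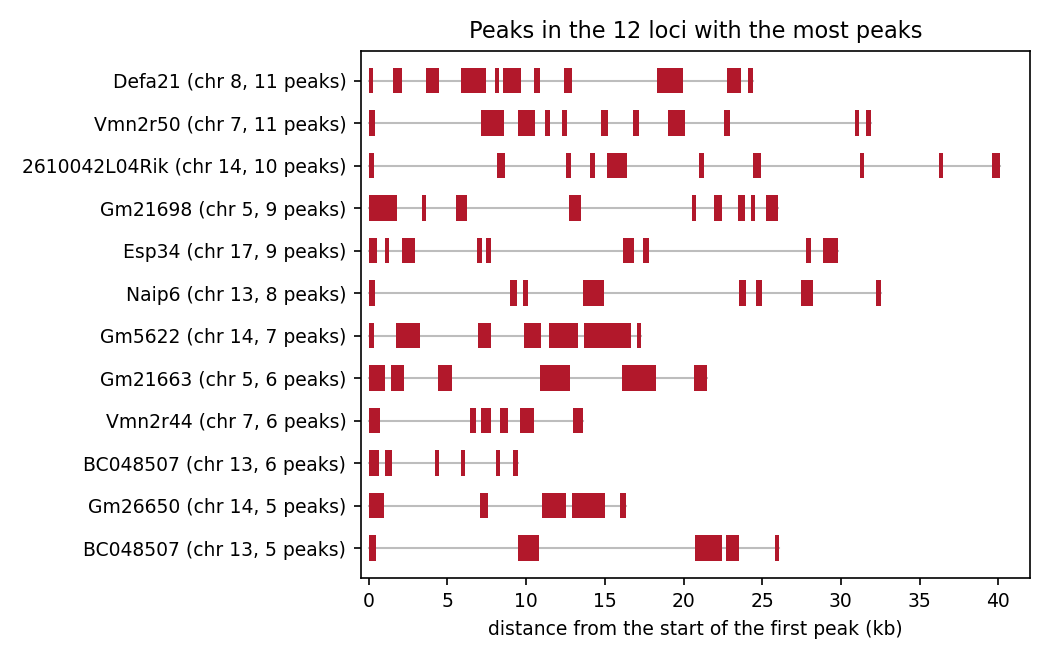
Each row is one of the 12 loci with the most peaks, labelled by its nearest protein-coding gene. Red blocks are peaks drawn to scale against the distance from the first peak in kb. Peaks are spread unevenly, and the 2610042L04Rik locus reaches 40.1 kb.

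Some loci lay close to each other. Of the 118 loci, 20 had another within 100 kb, and these formed 10 pairs. The pairs nearest to Ifi203, BC048507, Naip6, Esp34, Gm21663 with Gm21698, and Vmn2r49 with Vmn2r50 were set down as beside families or predicted genes. Those of BC048507 lay 130 and 186 kb from it. The other pairs lay at Msx1, at Hesx1 with Il17rd, at Sdc3 with Laptm5, and at Pknox2, which encodes a TALE homeodomain protein and held loci of 4 and 3 peaks 98.6 kb apart. The 6 genes named here (BC048507, Esp34, Ifi203, Msx1, Naip6 and Pknox2), were the nearest coding gene of 2 loci each.

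Among developmental genes, clustered loci stood near at most 2 members of any pathway or cell type list. Of 19882 protein-coding genes on the 18 autosomes, 312 (1.57%) had a clustered peak within 100 kb of their span. Of the 466 genes in any of 21 lists of pathways and cell types, 15 (3.22%) did. The lists were chosen with earlier results of these data known, so they have no test. Among signalling and streak lists the counts were 2 of 30 BMP genes, 1 of 37 Wnt genes, 1 of 25 FGF genes, 1 of 22 Notch genes, 2 of 18 retinoic acid genes, 1 of 23 primitive streak genes and 1 of 26 definitive endoderm genes. Among lists of tissues and cell states they were 2 of 28 neural ectoderm genes, 2 of 27 cardiac and lateral mesoderm genes, 2 of 21 paraxial mesoderm genes and 1 of 26 pluripotency genes. Of fibroblast genes, as markers of the feeder layer, 1 of 21 did, and the control lists of muscle contractile (24 genes) and photoreceptor genes (22) gave 0. The count was also 0 for the Nodal and Activin pathway (25 genes), blood and endothelium (27), epithelial-mesenchymal transition (25), axon guidance (27), synaptic adhesion genes of great length (26) and extraembryonic genes (24).

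Foxa2 encodes a forkhead factor of the node and definitive endoderm and was the only streak or endoderm list gene near a clustered locus. Its 3 peaks all lay beyond the end of the gene (chr2:148042877-148046969, minus strand). Their centres were 6.09, 8.30 and 17.5 kb past the transcription start, at widths of 358, 279 and 699 bp. The peak nearest to Foxa2, at chr2:148040703-148041060, covered 61 bases before the start of the noncoding gene 9030622O22Rik, printed above, and the outer 2 lay within that gene. The 3 peaks were also the only ones of the full list within 100 kb of Foxa2. Other regulators of the streak had no clustered locus near. The nearest to Eomes was 1.56 Mb away, to Mixl1 itself 2.44 Mb, to Lhx1 3.58 Mb, to Nodal 5.49 Mb, to T 5.08 Mb, to Mesp1 17.3 Mb and to Sox17 36.4 Mb. Lefty1, Lefty2, Tdgf1, Cxcr4 and Otx2 were 2.20 to 3.69 Mb from one. Several of these had other peaks of the list within 100 kb, with 4 at Eomes, 5 at Lhx1 and 2 each at Nodal and Tdgf1. There were 3 each at Lefty1, Lefty2, Cxcr4 and Otx2, and the stretches searched around Lefty1 and Lefty2 overlap. Mixl1 and Mesp1 had 1 each, and T and Sox17 had 0. The pluripotency genes Sox2, Pou5f1 and Nanog were 0.672, 1.79 and 3.76 Mb from the nearest clustered peak.

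A pair of homeobox genes outside the streak lists had clustered peaks on their flanks. En1, the engrailed gene of the midbrain and hindbrain, was enclosed by its locus, with no peak over the gene. Centres lay 4.15 and 2.30 kb before the start, at widths of 353 and 498 bp, and 7.52 kb after it at 521 bp, beyond the gene's end. Msx1, a homeobox gene that responds to BMP, had the most clustered peaks of any listed gene, with 7 in 2 loci, all before its start. The nearer locus had centres 1.40, 4.28 and 11.4 kb before the start, at widths of 354, 426 and 452 bp. The farther had 4 peaks from 69.2 to 80.4 kb before it, and its middle peaks were wider, at 1547 and 1725 bp. The first of those 4 covered 114 bases before the start of the noncoding gene Gm20052, with 1 half-site. Smad1, a transducer of BMP signals, held 3 peaks of 435, 555 and 946 bp within the gene, 14.6 to 17.4 kb after the start.

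Hesx1 and Il17rd, neighbours on chromosome 14, carried a locus each, 55.7 kb apart. Hesx1 encodes a paired-like homeodomain repressor of the anterior forebrain and pituitary, and Il17rd an inhibitor of FGF signalling that FGF itself induces. The Hesx1 peaks had centres 0.248 and 6.0 kb after the listed start and 5.98 kb before it, at widths of 362, 909 and 310 bp, and the last of these lay over the upstream end of the gene's span. The Il17rd peaks lay within the gene, 23.8, 27.8 and 30.6 kb after the start, at widths of 494, 938 and 336 bp. Tcf7l1, a TCF factor that represses Wnt targets in pluripotent cells, held 3 peaks 33.7, 34.5 and 40.3 kb after its start, within a gene of 163 kb. The 3 loci thus differed, since that of Hesx1 reached the gene's start and those of Il17rd and Tcf7l1 did not.

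**Figure D3:**
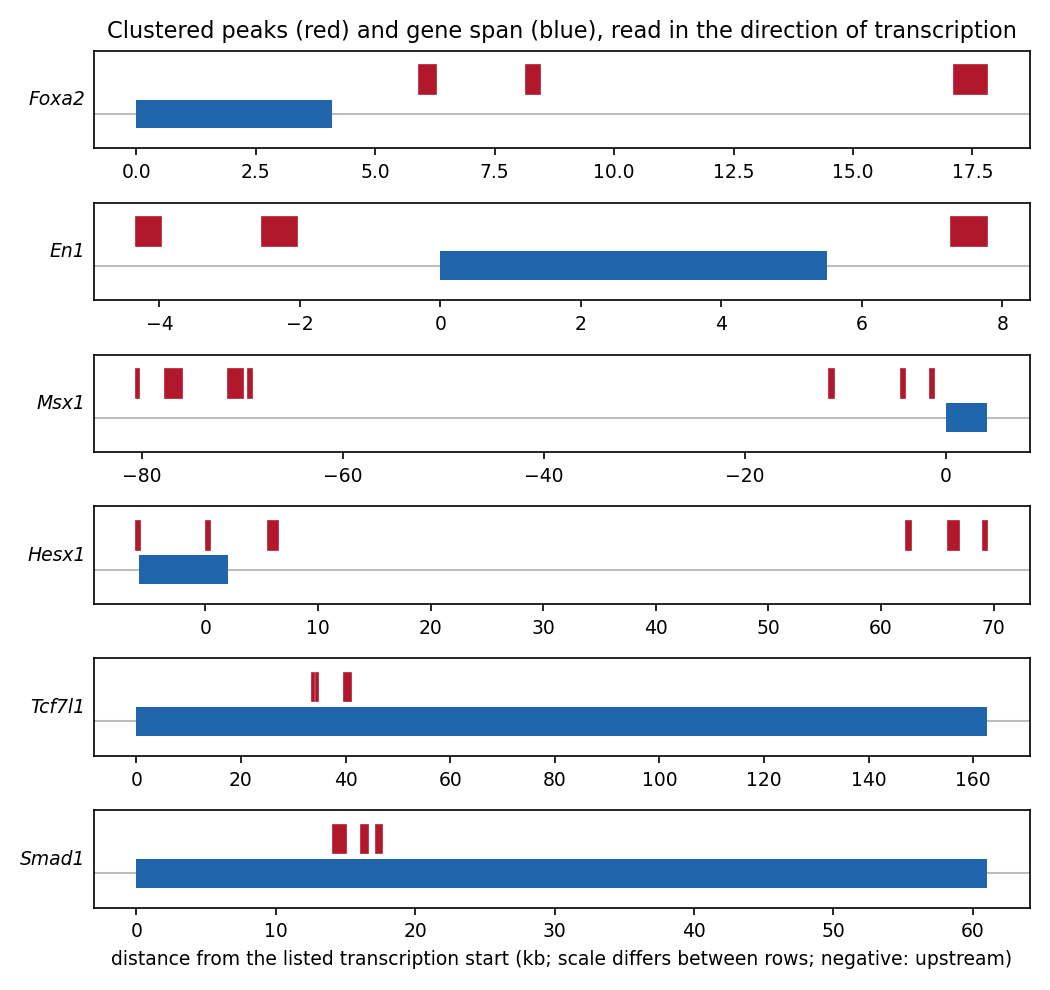
Clustered peaks (red) and gene spans (blue) are drawn in kb from the listed transcription start, in the direction of transcription, for 6 genes, with a scale of its own in each row. All 7 peaks at Msx1 lie before the start and all 3 at Foxa2 beyond the gene's end, while those at Tcf7l1 and Smad1 lie inside the gene. The right-hand group at Hesx1 lies within Il17rd.

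The other listed genes were farther from their loci or shared them with neighbours. Stra6, the cell-surface receptor for retinol-binding protein, overlapped 3 peaks whose centres lay 8.42, 16.0 and 21.3 kb before its farthest upstream start in the promoter table. The peaks at 16.0 and 21.3 kb also overlapped the span of its neighbour Ccdc33. Crabp1, which binds retinoic acid in the cytosol, had 3 peaks of 518 to 577 bp at 38.4 to 52.4 kb after its start, the nearest 29.7 kb beyond the gene. Lfng, a glycosyltransferase that modifies Notch, lay 52.0 kb from the locus that holds the Gm42808 promoter. That locus (chr5:140540275-140555382) had peaks of 558, 323 and 241 bp, and the middle one covered the promoter stretch with the inverted repeat. Zscan10, a zinc finger gene of pluripotent cells, lay 49.5 kb from a locus of 4 peaks. Pax7, Thy1 and Tbx20 lay 93.6, 97.6 and 99.9 kb from a clustered peak, close to the limit of 100 kb.

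Some loci lay wholly within 1 gene. In 48 of the 118 loci every peak overlapped the same protein-coding gene, and 15 of these were in genes of 200 kb or more. By the middle peak alone, 44.9% of loci and 44.2% of chains of 1 or 2 peaks lay inside coding genes. Inside coding genes of 200 kb or more were 12.7% and 16.8%. The genes named here were chosen after their values were seen. Trim71, which encodes an RNA-binding regulator of early development, held 5 peaks from 16.3 to 37.3 kb after its start, at widths of 317 to 677 bp. Cdh22, a cadherin gene, also held 5, from 58.3 to 75.4 kb after its start and 278 to 857 bp wide. These were the only loci of 5 or more peaks, besides that near Spopfm2, set down as beside neither a family nor a predicted gene. Zfp608 held 3 peaks of 1127, 1816 and 2656 bp, the largest summed width (5599 bp) among loci of 3. Loci of 4 peaks lay within Disp1, needed to release Hedgehog ligands, Slc2a1, the glucose transporter gene, Heg1, Bach2, Mbnl2, Coro2a, Cuedc1, Cntnap5b and Pknox2. Loci of 3 lay within Tead1, a transcription factor of the Hippo pathway, Tgfbr3, a co-receptor of TGF-beta ligands, Igf2bp1, an RNA-binding protein gene, Prtg, an immunoglobulin-superfamily gene of the early embryo, and Pappa, a protease gene of the IGF pathway.

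The loci that overlapped no coding gene numbered 55. Of these, 14 lay within 10 kb of one, 18 at 10 to 50 kb, 10 at 50 to 100 kb and 13 farther, up to 413 kb at Atp11b. By the strand of the promoter table, 21 lay on the upstream side of the nearest gene, 28 on the downstream side and 1, that of En1, on both sides, and 5 nearest genes have no listed strand. The same split is not given here for chains of 1 or 2 peaks. Noncoding genes or pseudogenes were overlapped by 40 of the 118 loci, and no gene of any kind by 28. These counts take every peak of a locus, so they cannot be set against chains of 1 or 2 peaks. By the middle peak alone, 11.9% of loci and 9.56% of such chains lay inside other genes only. Outside genes were 41.5% and 38.9%, and at gene starts or ends 1.69% and 7.35%. Counting every peak, 19 loci had one within 1 kb of a coding gene's start (or of either end, where no start is listed). Rps12, a ribosomal protein gene, had 2 such peaks at its listed start, and Riiad1, which has no listed start, had 1 at each end of its span. Among the rest with a listed start, the closest peak centres were 12.5 bp from that of Elovl6, which encodes a fatty acid elongase, 120 bp from that of Frmd4a and 248 bp from that of Hesx1. The Frmd4a start, at chr2:4559754, lies inside the gene's span (chr2:4017650-4614043, plus strand) and not at its upstream end. Ndufa4l2, Olfr55 and Zfp960 have no listed start, and a peak centre lay 56.0, 181 and 299.5 bp from one end of their spans, which may be either the start or the other end. The peak at Ndufa4l2 also overlapped the span of its neighbour Shmt2. The Elovl6 peak covered 159 bases before the start, printed above, with 1 half-site.

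Transfer RNA genes lay under 2 loci. The locus near Osbp on chromosome 19 had a tRNA gene under each of its 3 peaks, with n-TFgaa6, n-TKctt29 and the group n-TRtct1, n-TVtac1 and n-TVtac2. The locus near Zfp213 on chromosome 17 had n-TKctt14 and n-TRccg2 under 2 of its 4 peaks. In all, 5 of 443 clustered peaks (1.13%) overlapped a tRNA gene, against 15 of 6615 single and paired peaks (0.227%). This was seen in the data first, rests on 2 loci and was not tested.

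To set the clustered loci against the rest, 1 peak per chain was compared, the middle one, since peaks of a chain share a locus. Two-sided Fisher's exact tests on 118 loci and 6108 chains of 1 or 2 peaks were adjusted over 6 classes by the Benjamini-Hochberg method. None of the 6 passed at 0.05, and 1 had an unadjusted p under it. At the start or end of a coding gene were 2 of 118 loci (1.69%, 95% Wilson interval 0.466 to 5.97), against 449 of 6108 chains of 1 or 2 peaks (7.35%, interval 6.72 to 8.03), an odds ratio of 0.217 (interval 0.0259 to 0.808, exact p = 0.0116, adjusted 0.0696). The middle peak decides this value. With all peaks the shares were 4.97% and 7.17% (odds ratio 0.677, adjusted exact p = 0.168), and with the widest peak of each chain 5.08% and 7.29% (0.682, adjusted exact p = 0.852). Counting starts or ends within 5 kb instead of 1 kb gave 13.6% and 16.4% (0.802, adjusted exact p = 0.849). With no window left out, 3 of 169 loci lay at gene ends (0.227, adjusted exact p = 0.0141).

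The other shares were close to those of the single and paired peaks. Inside coding genes were 44.9% of loci and 44.2% of the chains of 1 or 2 peaks (odds ratio 1.03, interval 0.699 to 1.51). Inside other genes only were 11.9% and 9.56% (1.27, interval 0.668 to 2.25), and outside genes 41.5% and 38.9% (1.12, interval 0.756 to 1.64). Within 50 kb of a coding gene were 78.0% and 79.5% (0.915, interval 0.584 to 1.48). Inside coding genes of 200 kb or more were 12.7% and 16.8% (0.723, interval 0.389 to 1.26, adjusted exact p = 0.793). For these 5 classes the adjusted exact p was 0.793 to 0.926, and the intervals of the odds ratios ran from 0.389 to 2.25. The median distance of the middle peak to a gene start or end was 33.1 kb in clustered loci and 33.5 kb in chains of 1 or 2 peaks. The median distance to the span of the nearest coding gene, at 0 where they overlap, was 2.29 kb in clustered loci and 0 kb in chains of 1 or 2 peaks, and this difference was not tested. Without loci beside families or predicted genes, an alternative added after the data were seen, 52.2% of the remaining 92 loci and 46.0% of the remaining chains lay inside coding genes (1.28, adjusted exact p = 0.495).

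**Figure D4:**
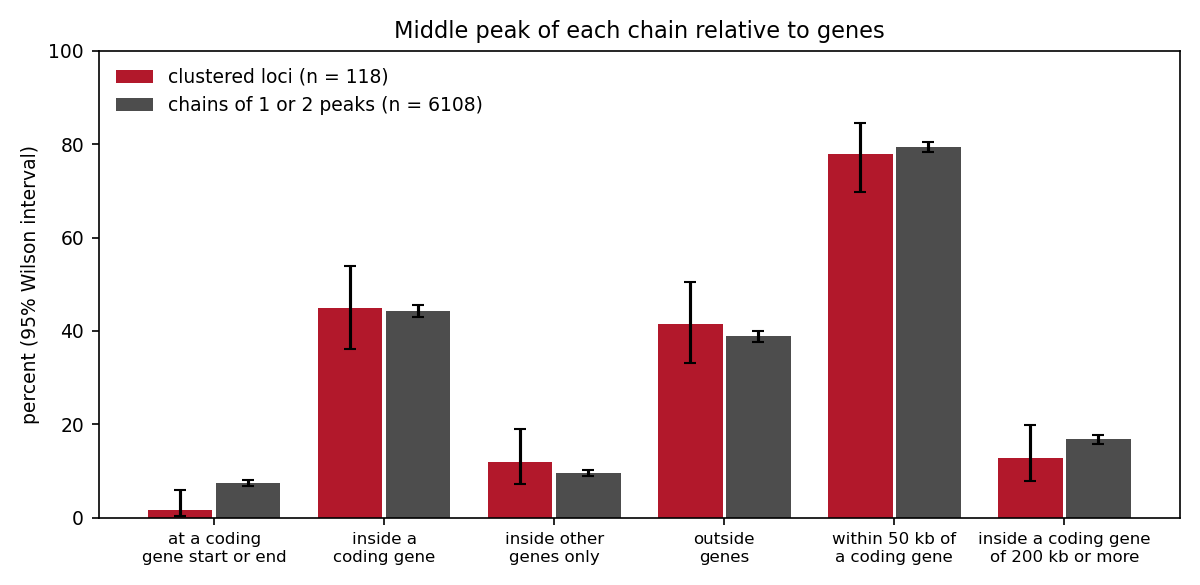
Bars give the percent of middle peaks in each class for the 118 clustered loci (red, left) and the 6108 chains of 1 or 2 peaks (grey, right), with 95% Wilson intervals. The first 4 classes add up to the whole and the last 2 overlap them. Only at gene starts or ends, 1.69% against 7.35%, do the intervals not overlap, and that class did not pass after adjustment.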

How the data were processed

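The series has 2 FLAG ChIP and 2 input libraries. The submitters' processing notes list MACS2, SAMtools, Bowtie2 and CASAVA 1.8.2, with the build mm10. The authors deposited 1 list of peak starts and ends in bases (no other unit). The name of the list carries short tags that may stand for filters or a threshold, and the sources used here do not explain them. Pooling and use of input are not described there either, so depth and replicate spread are unknown.

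Peaks were chained at gaps of at most 10 kb after counting centres per 1-Mb window. Genes came from the RefSeq table of GRCm38.p6, without genes that start in the first 3 Mb. Starts came from the promoter table, which lists 79.8% of the 19882 coding genes used. Elsewhere either end of the span served. No genome was used, so the planned motif tests in peaks were not run, and promoter windows served instead. Classes were compared by Fisher's exact test over all loci, checked on simulated data. The simulated data held either a higher share at gene ends in loci or no difference, and a lower share was not tried. Members, gene lists and motifs were chosen with earlier results of these data known. Named genes followed a written rule: the 12 loci with the most peaks, the 5 with the largest summed width, up to 5 genes per list, 8 genes by peaks at their ends, 8 by number of loci, and 16 fixed genes. Other genes were named after their values were seen. The count of 1 further control list is not reported here. Alternatives covered gaps, chain size, windows, width, unit of comparison and gene table. Tools were scipy 1.17.1, statsmodels 0.14.6, pandas 2.3.3, numpy 2.4.6 and matplotlib 3.10.9 under Python 3.11.15. Positions are 1-based.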

Additional observations from a re-analysis of the deposited data

Results flagged for a closer look

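Chains of 3 or more peaks also lay in places that the choice of loci leaves out, and no comparison above uses them. They held 472 peaks in 51 chains in windows of 20 or more peaks on the 18 autosomes, 500 peaks in 107 chains on chromosome 12, and 176 peaks in 18 chains on contigs outside the chromosomes. Chromosome X held none. Together with the 443 clustered peaks, these groups make up the 1591 peaks (16.6% of the list) in chains of 3 or more. What sets their number was not tested.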

How the results depend on the processing

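The number of clustered peaks and loci follows from the rule. Against 443 peaks and 118 loci, a gap of 5 kb gave 241 and 67, one of 20 kb 828 and 213, chains of 4 or more 206 and 39, the wider 50% of peaks 110 and 32, and windows of 10 or more peaks left out 225 and 67. With no window left out there were 915 peaks in 169 loci. Leaving windows out before chaining gave the same numbers. The 312 coding genes within 100 kb became 161, 578, 117, 92 and 180 under the first 5 of these, 181 within 50 kb, 586 within 200 kb and 112 by nearest gene only.

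Classes compared by odds ratio passed in 2 settings where the main comparison did not: gene starts or ends with no window left out (0.227), and genes of 200 kb or more with all peaks (0.605, adjusted exact p = 0.00527), where peaks of a locus count as independent. The share at gene starts or ends stayed below that of chains of 1 or 2 peaks in all alternatives (odds ratio 0.0 to 0.802). Odds ratios near 1 changed side. Inside coding genes gave 0.853 with all peaks, 0.960 with the widest peak, 0.967 at a 5 kb gap, 0.877 for 4 or more peaks, 0.947 with no window left out and 0.952 without predicted genes. Inside other genes only gave 0.573 for wider peaks, 0.968 without windows of 10 or more peaks and 0.907 without predicted genes. Outside genes gave 0.937 with the widest peak, 0.811 at a 20 kb gap and 0.801 without families or predicted genes. Within 50 kb of a coding gene gave 1.02 with all peaks and 1.02 for wider peaks, 1.08 at a 5 kb gap, 1.07 at 20 kb and 1.14 with no window left out. The cause was not tested.

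No paired analysis was possible because the deposited list holds no value per library, and leaving out a replicate has no counterpart here. The motif alternatives were not run, since no genome sequence was used.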
